A study of Rattus norvegicus with 4 samples.

Results

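The mitochondrial genome and the chromosomes lie in different compartments of the cell, and the contacts that Hi-C scored between them were counted here in primary rat Schwann cells, the glia of peripheral nerve, grown from sciatic nerve. In Hi-C, DNA is fixed, cut and rejoined, and each sequenced read pair that passes filters is 1 contact between 2 places of the genome. Lenti-AS cells received a lentivirus that overexpresses Egr2-AS-RNA, the antisense RNA of the Egr2 promoter, and Lenti-GFP cells received a control lentivirus carrying GFP. The study's methods name pLVX-DsRed-Express2-N1 as the vector of the antisense RNA and pLVX-AcGFP1-N1 as the control, so the groups also differ in vector, and effects of the vector and of the antisense RNA cannot be told apart. The virus was given at 2 viral units per cell and left for 48 hours in both groups, which were grown with forskolin and heregulin-β1, and which gave 2 libraries each, made with the Arima kit from 2000000 cells per library. No group of uninfected cells was analysed here, and contact counts hold no marker genes with which the labelled cell type could be checked.

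The members are the 10 kb bins of the numbered chromosomes with 1 or more contacts with the mitochondrial genome (chrM) in any of the 4 libraries. There were 7261 such bins among 261882 bins on chromosomes 1 to 20. Positions are those of the rat build rn6, counted from 1. In the bin table chrM ends at position 16313 and fills 2 bins. Bin 1 runs from 1 to 10000 and covers 61.3% of its length, and bin 2 runs from 10001 to 16313.

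Mitochondrial DNA is a small circle present in many copies per cell. It codes for subunits of the respiratory chain and for the RNAs of the organelle's own ribosomes and translation. Bin 1 holds both ribosomal RNA genes and the cytochrome oxidase genes, and bin 2 holds the cytochrome b gene and the noncoding control region, where replication and transcription start. Because the organelle membranes separate this DNA from chromatin, its contacts with chromosomes are commonly read as a gauge of joining between DNA ends that were not neighbours in the living cell. Chromosomes also carry old copies of mitochondrial sequence, and reads from such a copy can be placed on either side, so bins hit again and again were looked for as well.

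Contacts between chrM and the chromosomes were far more frequent in Lenti-AS than in Lenti-GFP. There were 357 in Lenti-GFP replicate 1 and 409 in replicate 2, against 3492 in Lenti-AS replicate 1 and 3152 in replicate 2. The libraries held between 70488877 and 110770015 contacts in all, and the Lenti-AS libraries were the smaller ones. Per 1000000 contacts of the library, the rate was 3.76 (95% Wilson interval 3.39 to 4.17) and 3.69 (3.35 to 4.07) in the Lenti-GFP libraries. It was 46.7 (45.2 to 48.3) and 44.7 (43.2 to 46.3) in the Lenti-AS libraries. The groups did not overlap, and within each group the intervals of both libraries overlapped. The group means were 3.73 ± 0.0476 and 45.7 ± 1.39 per 1000000 (SD, n = 2), a 12.3-fold difference (two-sided exact permutation p = 0.333, the smallest that this design allows). Intervals here and below cover counting error only, and read pairs are not known to be independent molecules. The study's methods call the samples independent, but the sources do not say whether those of a group came from separate cultures or animals, so p-values measure only the spread between these libraries, which may be technical.

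The contacts within the mitochondrial genome moved in the same direction but less. They numbered 1488 and 1765 in Lenti-GFP replicates 1 and 2 and 5182 and 4665 in Lenti-AS replicates 1 and 2. Per 1000000 contacts this was 15.8 ± 0.186 for Lenti-GFP and 67.7 ± 2.18 for Lenti-AS (SD, n = 2), a 4.29-fold difference with no overlap between the groups (exact permutation p = 0.333). The kinds of contact differed in size of change. Contacts with both ends inside bin 1 were 3.14-fold higher in Lenti-AS, from 7.97 ± 0.329 to 24.999 ± 0.223 per 1000000. Contacts with both ends inside bin 2 were 3.69-fold higher, from 4.82 ± 0.359 to 17.8 ± 0.0770 per 1000000. Contacts that joined bin 1 with bin 2 were 8.29-fold higher, from 3.01 ± 0.216 to 24.9 ± 2.04 per 1000000 (SD, n = 2 for each, exact permutation p = 0.333 for each). Joined bins thus made up 19.02% ± 1.14 of the contacts within chrM in Lenti-GFP and 36.8% ± 1.82 in Lenti-AS.

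Set against the contacts within chrM, the difference in nuclear contacts was smaller. For every 1000 contacts within chrM there were 239.9 and 232 contacts with chromosomes for Lenti-GFP, and 674 and 676 for Lenti-AS, a 2.86-fold difference. Of all contacts of chrM, 18.9% ± 0.379 for Lenti-GFP and 39.7% ± 0.0389 for Lenti-AS had their other end on chromosomes 1 to 20 (SD, n = 2, exact permutation p = 0.333). Per contact between bins 1 and 2 the ratio was 1.32 and 1.17 for Lenti-GFP and 1.77 and 1.90 for Lenti-AS, so that these values lay within 1.48-fold by group mean. The amount of mitochondrial DNA in each library was not measured apart from its contacts, and its part in the result was not tested.

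**Figure D1:**
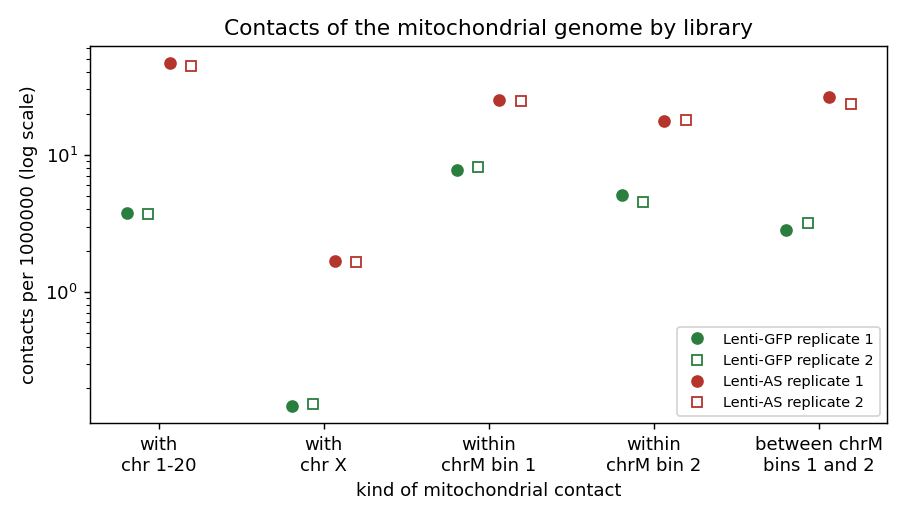
Contacts per 1000000 contacts of the library, on a log axis, for 5 kinds of contact of the mitochondrial genome. Each point is 1 library, with circles for replicate 1 and squares for replicate 2. Both Lenti-AS libraries lie above both Lenti-GFP libraries in each kind, with the widest gap for contacts with chromosomes 1 to 20 (3.73 against 45.7 by group mean) and a narrow one for contacts within bin 1.

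The ends on chrM were spread over both of its bins. In Lenti-GFP replicate 1, bin 1 took 175 of the 357 nuclear contacts, which is 49.02% (95% Wilson interval 43.9 to 54.2%). It took 57.7% (52.9 to 62.4%) in Lenti-GFP replicate 2, 59.97% (58.3 to 61.6%) in Lenti-AS replicate 1 and 59.4% (57.7 to 61.1%) in Lenti-AS replicate 2. The intervals of Lenti-GFP replicate 2 and both Lenti-AS libraries overlap each other, and Lenti-GFP replicate 1 lies below the Lenti-AS libraries. By length, bin 1 would take 61.3%. Both bins were hit more often in Lenti-AS. Bin 1 had 1.99 ± 0.203 nuclear contacts per 1000000 for Lenti-GFP and 27.3 ± 1.003 for Lenti-AS, and bin 2 had 1.74 ± 0.251 and 18.4 ± 0.383 (SD, n = 2, 13.7-fold and 10.6-fold).

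The rate was next placed among all other contacts between chromosomes. Lenti-AS was set against Lenti-GFP by edgeR in the counts of 252 pairs of different chromosomes (1 to 20, X, Y and chrM) with at least 10 contacts. Of these, 24 (9.52%) passed an adjusted p of 0.05, and 22 (8.73%) were higher in Lenti-AS. All 20 pairs of chrM with a numbered chromosome were among the 22. They divide up the same chrM contacts of each library, so they are not 20 separate results. The log2 fold changes of these 20 ran from 3.11 to 4.33 with a median of 3.58, and the highest adjusted p was 0.0129. Over all pairs the median log2 fold change was -0.0022. The 231 pairs without chrM ran from -0.11 to 0.20, and 3 of them passed, 1 higher and 2 lower. An unadjusted edgeR p below 0.05 was reached by 57 of these 231 pairs. The pairs of chrM thus moved on a scale that no pair of nuclear chromosomes reached in this fit. In counts simulated for the 231 pairs, the test recovered 100% of 20 pairs changed by 2-fold and made 0 false calls. Each pair was simulated on its own, so shifts shared by the pairs of a chromosome were not simulated. These pairs hold 100 or more contacts in each library, more than any chrM pair in Lenti-GFP. The calls for chrM were thus not checked at their depth. The trans contacts as a whole, those between different chromosomes among 1 to 20 and X, differed little, at 12.7% ± 0.0925 of all contacts for Lenti-GFP and 12.97% ± 0.0404 for Lenti-AS (SD, n = 2). Per 1000000 trans contacts, those with chrM were 29.4 ± 0.589 for Lenti-GFP and 352 ± 9.59 for Lenti-AS.

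The 5 pairs with the lowest p were those of chromosomes 2, 1, 8, 3 and 10. Chromosome 2 had 31 and 42 contacts with chrM in Lenti-GFP replicates 1 and 2 and 306 and 304 in Lenti-AS replicates 1 and 2 (log2 fold change 3.52 ± 0.0905 (SE), edgeR adjusted p = 0.00102). Chromosome 1, the longest, had 43 and 44 in Lenti-GFP and 416 and 358 in Lenti-AS (3.61 ± 0.100 (SE), edgeR adjusted p = 0.00102). On both chromosomes the groups did not overlap in counts or in contacts per 1000000. Chromosome 8 had 18, 19, 203 and 182 contacts in the same order of libraries (log2 fold change 3.83). Chromosome 3 had 25, 23, 251 and 220 (3.75), and chromosome 10 had 12, 18, 166 and 166 (3.92). Chromosome X, which is not numbered and was fitted in the same table, had 14, 17, 126 and 117 contacts with chrM (3.42 ± 0.149 (SE), edgeR adjusted p = 0.00146). The SE values of chromosomes 2, 1 and X are smaller than counting error alone would give, so they overstate the precision. Chromosome Y had 0 contacts with chrM in 3 libraries and 2 in Lenti-AS replicate 1, too few for the fit.

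**Figure D2:**
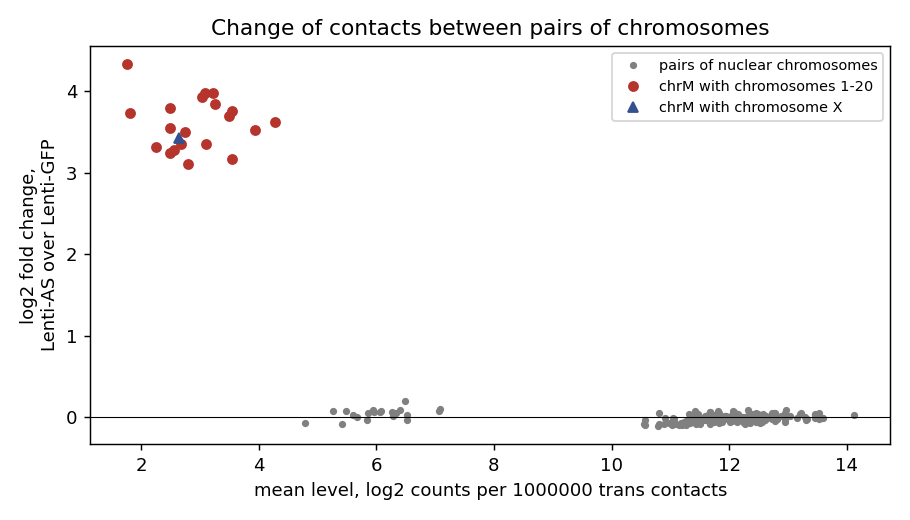
Log2 fold change of Lenti-AS over Lenti-GFP against the mean level (log2 counts per 1000000 contacts between chromosomes) for 252 pairs of chromosomes, 1 point per pair. The 20 pairs of chrM with numbered chromosomes lie between 3.11 and 4.33, while pairs of nuclear chromosomes lie between -0.11 and 0.20.

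Every numbered chromosome showed the difference. The fold between the group means of contacts per 1000000 ran from 8.70 on chromosome 13 to 21.3 on chromosome 12, with 4 and 5 contacts for Lenti-GFP and 72 and 63 for Lenti-AS. Whether the chromosomes differed in this fold was tested on the share of a library's chrM contacts that fell on each chromosome. With edgeR, 0 of 20 chromosomes (0%) reached an adjusted p of 0.05, the lowest adjusted p was 0.680, and unadjusted p-values below 0.05 numbered 0. The widest differences in share were 0.79 ± 0.230 (SE) on the log2 scale on chromosome 12 and -0.46 ± 0.300 on chromosome 13. On chromosome 12 the SE is smaller than counting error alone would give, and the unadjusted edgeR p was 0.0844. The Lenti-GFP counts on single chromosomes ran from 4 to 44 per library, and the size of difference that this test can detect was not measured.

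Over the sum of the libraries, chromosomes took chrM contacts nearly in proportion to their own contacts. Lenti-AS gave 6644 of these 7410 chrM contacts, so the sum mostly describes that group. The share of chrM contacts on a chromosome was divided by its share of trans contacts, over the sum of the libraries. This ratio was highest on chromosome 1 (1.30, and 1.21 to 1.36 in single libraries) and on chromosome 5 (1.11, single libraries 1.01 to 1.19). It was lowest on chromosome 20 (0.741, single libraries 0.533 to 0.801) and on chromosome 14 (0.765, single libraries 0.720 to 1.02). In both Lenti-GFP libraries it was lowest on chromosome 12 (0.453 and 0.504, from 4 and 5 contacts). That chromosome had 0.876 and 0.858 in the Lenti-AS libraries. Longer chromosomes have fewer trans contacts per contact, 11.1% of the contact ends on chromosome 1 against 16.9% on chromosome 20, and trans contacts divide the ratio.

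A second reference counted all contact ends of a chromosome, those within it included. The range of the ratio then narrowed to between 0.847 on chromosome 14 and 1.13 on chromosome 1. For chromosome 1 the 95% Wilson interval was 1.06 to 1.20, and the ratio was above 1 in each library, from 1.04 to 1.17. Chromosome 17 was also above 1 in each library, at 1.12 over the sum. Chromosome 14 lay below 1 in the sum (interval 0.751 to 0.954), while its values in single libraries ran from 0.792 to 1.13. Intervals left out 1 for 5 of the 20 chromosomes. When the chromosomes are placed in order, all 19 pairs of neighbours overlapped in their ranges over the libraries. The ranges are wide at the low Lenti-GFP counts, so this overlap cannot show that steps are absent. For the ratio to trans contacts 18 of 19 overlapped, and chromosome 1 stood apart from chromosome 5. Between both Lenti-AS libraries the 20 ratios to contact ends had a Pearson r of 0.424, and between the other pairs of libraries r lay from -0.501 to 0.158.

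**Figure D3:**
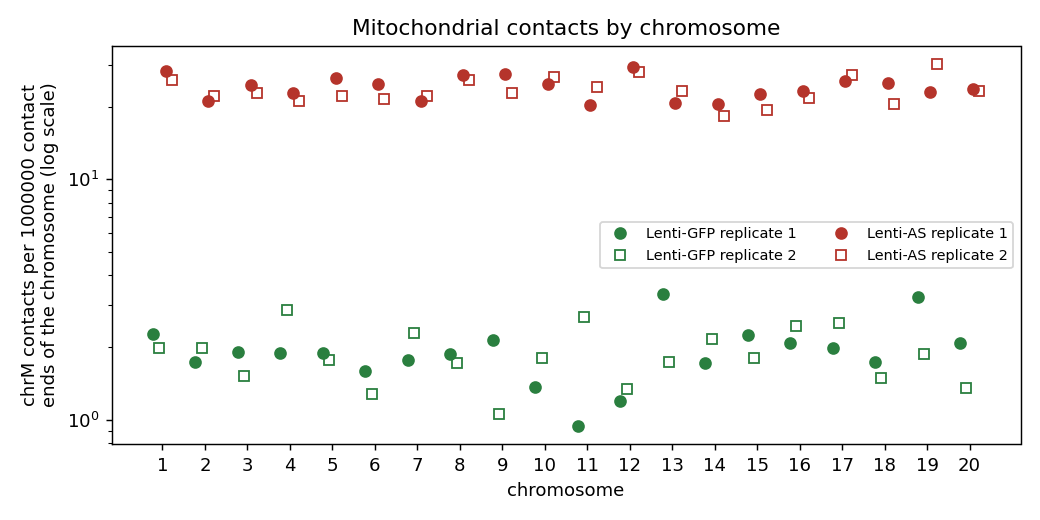
Contacts with chrM per 1000000 contact ends of each numbered chromosome, on a log axis, with 1 point per library and chromosome. The Lenti-AS libraries lie in 1 band above the Lenti-GFP libraries on all 20 chromosomes. The Lenti-GFP points rest on 4 to 44 contacts each.

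Within chromosomes, the contacts of chrM were set against the contacts of the bins. Of the numbered bins, 252491 had trans contacts and held all 7410 contacts with chrM over the 4 libraries. The remaining 9391 bins had no trans contacts and held 0, which allows a share of up to 0.0405%. Whether reads can be placed in these bins was not checked, so the 0 does not show that chrM contacts follow trans contacts. The bins with trans contacts were put in order of these and split into 10 equal classes, the deciles. The lowest decile took 2.44% of the chrM contacts and the highest decile 13.8%. Per 1000000 trans contacts of the bins, the rate was 101.8 (95% Wilson interval 87.97 to 117.7) in the lowest decile, 119.9 (110.5 to 130.1) in the second, where it was highest, and 54.5 (51.3 to 57.98) in the highest. The bins were ordered by the quantity that divides this rate. The second decile stood 2.20-fold over the highest, and in single libraries this ratio ran from 1.90 in Lenti-GFP replicate 1 to 3.76 in Lenti-GFP replicate 2, with 1.95 and 2.25 in the Lenti-AS libraries.

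With the same deciles and all contact ends as the divisor, the fall was not seen over the sum of the libraries. The rate was then 12.03 per 1000000 ends in the lowest decile, 11.4 in the second, 10.5 in the sixth and 11.6 in the highest. In Lenti-GFP alone it was 2.43 in the second decile and 2.01 in the highest. Between these it rose in Lenti-GFP replicate 1 (1.91 to 2.29) and fell in Lenti-GFP replicate 2 (2.87 to 1.77). With the bins ordered by contact ends as well, the rate over the sum was 14.9 per 1000000 ends (12.7 to 17.5) in the lowest decile. It was 12.9 (11.8 to 14.1) in the second and 10.2 (9.62 to 10.8) in the highest, so that the second decile stood 1.27-fold over the highest. In Lenti-AS the deciles ran from 22.04 to 29.4 per 1000000 ends. In Lenti-GFP they ran from 1.46 to 4.35, where the lowest decile held 25 contacts (4.35 per 1000000, interval 2.95 to 6.42). The second decile stood 1.60-fold over the highest in Lenti-GFP and 1.24-fold in Lenti-AS. The lowest decile had the highest rate in both Lenti-GFP libraries (3.87 and 4.74) and in Lenti-AS replicate 1 (35.6, interval 28.5 to 44.5), but not in Lenti-AS replicate 2 (22.8, interval 17.1 to 30.4, against 26.7 in the second decile). Each decile of Lenti-AS lay above each decile of Lenti-GFP.

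**Figure D4:**
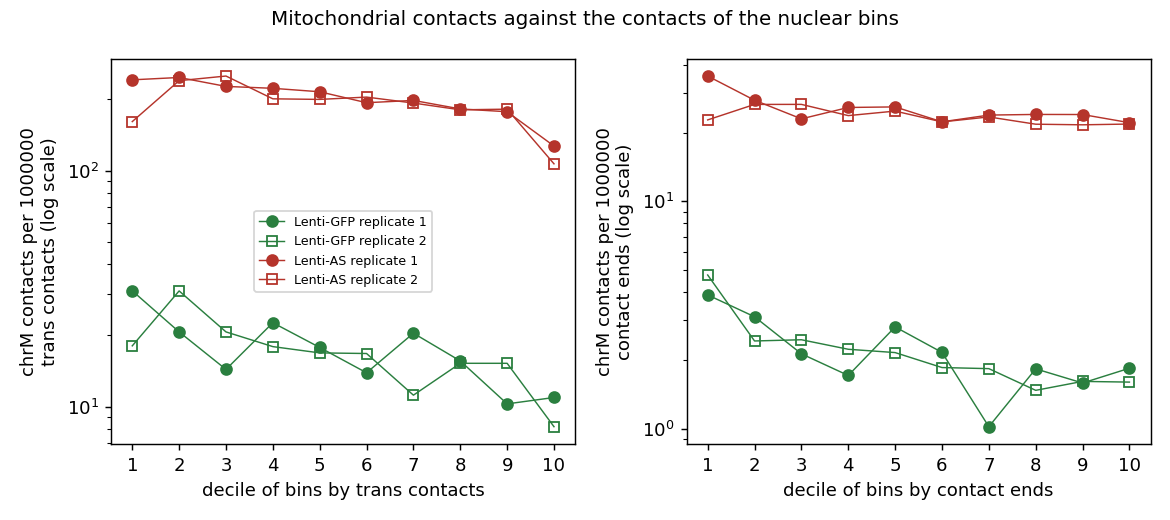
Contacts with chrM per 1000000 trans contacts of the bins (left) and per 1000000 contact ends (right), on log axes, in deciles of bins ordered by the same measure, with 1 line per library. The lines of the Lenti-AS libraries fall at high trans contacts and fall less against contact ends, from 35.6 to 22.2 in replicate 1 and from 22.8 to 21.9 in replicate 2 between the lowest and the highest decile.

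The spread along the chromosomes was compared in windows of 10 Mb, given the total of chrM contacts in a library. With edgeR, 0 of 263 windows (0%) with at least 10 contacts reached an adjusted p of 0.05, with unadjusted p-values below 0.05 for 16. DESeq2 called 0, with 6 at an unadjusted p below 0.05. In simulated windows of the same depth edgeR recovered 35% of 20 windows changed by 4-fold, so most changes of that size in 1 window were not detectable. TMM factors in place of the plain total moved the median log2 fold change of the windows from 0.05 to 0.33 and left 0 calls. In the 254 full windows there were between 9 and 44 contacts in Lenti-AS and at most 11 in Lenti-GFP, with 0 in 15 windows of Lenti-GFP and in none of Lenti-AS. Per 1000000 contact ends the windows of Lenti-AS ran from 8.50 to 41.1 with a median of 24.04, and those of Lenti-GFP from 0 to 6.52 with a median of 1.81. Lenti-AS was the higher group in all 254 windows. These rates are not set against the total of chrM contacts, so they carry the difference in the whole rate. The windows divide up the same chrM contacts and are not 254 separate results. Across these windows the contacts with chrM and the contact ends had a Pearson r of 0.414 in Lenti-AS and 0.0588 in Lenti-GFP. This is a description over windows that share their libraries. Counting error lowers r more at the low counts of Lenti-GFP, so these r values cannot be compared between the groups.

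**Figure D5:**
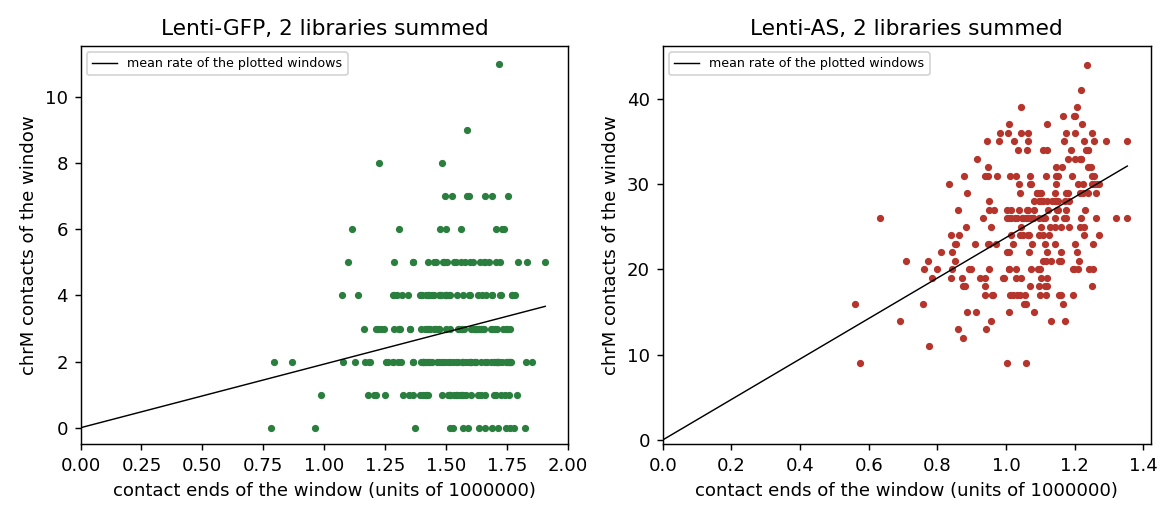
Contacts with chrM in the 254 full windows of 10 Mb against the contact ends of the window in units of 1000000, with the libraries of a group summed and 1 point per window. The line is the mean rate of the plotted windows. Windows of Lenti-AS hold 9 to 44 contacts and those of Lenti-GFP 0 to 11.

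Almost every member bin was hit once. Of the 7261 members, 7121 (98.1%) had 1 contact over the 4 libraries, 134 had 2, 5 had 3, and 1 had 6. Sharing out the 7410 contacts over the bins in proportion to their contact ends gives 126 bins with 2 or more, against 140 seen, and 1.81 bins with 3 or more, against 6 seen. In proportion to trans contacts it gives 157 bins with 2 or more. Within single libraries no bin had more than 3 contacts, and 3, 2, 34 and 24 bins had 2 or more, in the order of Lenti-GFP replicates 1 and 2 and Lenti-AS replicates 1 and 2. Sharing out by contact ends gives 0.303, 0.396, 28.6 and 23.4, so the counts lay above this reference in both Lenti-GFP libraries and closer to it in both Lenti-AS libraries.

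Members were seldom seen in more than 1 library. There were 7178 bins (98.9%) in 1 library, 82 in 2, 1 in 3 and 0 in all 4. Both Lenti-AS libraries shared 55 bins, which were 1.59% of the members of replicate 1 and 1.76% of those of replicate 2. The members of replicate 2 hold 1.48% of the contact ends of replicate 1, and those of replicate 1 hold 1.62% of the ends of replicate 2, so the shared bins were close to this background. The Lenti-GFP libraries shared 1 bin, 0.282% of the members of replicate 1 and 0.246% of those of replicate 2, where the shares of contact ends were 0.177% and 0.179%. Lenti-GFP replicate 2 shared 13 bins with Lenti-AS replicate 1 (3.20% of its own members and 0.376% of the others, where the share of its contact ends was 1.64%). It shared 2 bins with Lenti-AS replicate 2 (0.493% and 0.0639%, where that share was 1.48%). Lenti-GFP replicate 1 shared 5 bins with Lenti-AS replicate 1 (1.41% and 0.145%) and 9 with Lenti-AS replicate 2 (2.54% and 0.288%), where the shares of its contact ends were 1.64% and 1.48%. Pairs of libraries from different groups thus lay on both sides of the share of contact ends.

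The bin with the most hits lay on chromosome 9, from 87480001 to 87490000. It had 0 contacts in Lenti-GFP replicate 1, 3 in Lenti-GFP replicate 2, 2 in Lenti-AS replicate 1 and 1 in Lenti-AS replicate 2. It had 415 trans contacts, where the median bin had 323, and 4404 contact ends, 1.58 times the median and within the highest decile. Its contact ends would give 0.0482 contacts with chrM. Of its 6 contacts, 5 were with bin 2 of chrM. No other bin within 50 kb was a member, and no other bin was seen in 3 libraries. It was the only bin with 5 or more contacts. Without Lenti-GFP replicate 2 or without Lenti-AS replicate 1 it would have had under 5, and 0 bins would have reached that number.

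The 5 bins with 3 contacts fell into different kinds. Those on chromosome 3 (40001 to 50000) and on chromosome 1 (55710001 to 55720000) had 42779 and 6934 trans contacts, 132-fold and 21.5-fold the median, and their contact ends would give 0.845 and 0.451 contacts with chrM. The bin on chromosome 3 had 1 contact in Lenti-GFP replicate 1 and 2 in Lenti-AS replicate 2. The bin on chromosome 1 had 3 in Lenti-AS replicate 1, and its neighbours within 50 kb had 5 more. Bins on chromosome 8 (180001 to 190000) and chromosome 20 (19480001 to 19490000) had few contacts of their own, with 141 and 173 trans contacts. Their contact ends would give 0.00721 and 0.00917 contacts with chrM, less than those of the bin on chromosome 9. The first had 1 contact with chrM in Lenti-GFP replicate 2 and 2 in Lenti-AS replicate 1, all with bin 1 of chrM. The second had 2 and 1 in the Lenti-AS libraries, on both bins of chrM. Each had 1 more member within 50 kb, with 1 contact.

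The last of the 5 lay on chromosome 1, from 242220001 to 242230000, with 1 and 2 contacts in the Lenti-AS libraries and 252 trans contacts of its own. By its contact ends it would have 0.0303 contacts with chrM. It was not alone in its stretch. The bin from 242240001 had 2 contacts in Lenti-GFP replicate 1, and the bins from 242250001 and 242290001 had 1 each in Lenti-GFP replicate 2. The bin from 242180001 had 1 in Lenti-AS replicate 1. All 8 contacts of this stretch were with bin 1 of chrM, and all 4 libraries took part. The other 4 bins named by the rule, all on chromosome 1 (from 4340001, 11910001, 15240001 and 33880001), had 2 contacts each and none in Lenti-GFP. They came first by position among the 134 bins with 2 contacts, and most chrM contacts were from Lenti-AS.

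This stretch and the bin on chromosome 9 were also where the Lenti-GFP contacts lay closest together. Among windows of 100 kb, 25451 had 0 contacts over both Lenti-GFP libraries, 731 had 1, 14 had 2, and 2 windows had 3 or more. These were the window from 242200001 to 242300000 on chromosome 1, with 4, and the window from 87400001 to 87500000 on chromosome 9, with 3. Both windows were chosen after the values of all 4 libraries had been seen, and both hold bins named above for their total over both groups, so the values of either group are a description. In Lenti-AS the 2 windows held 6 contacts (exact Poisson interval 2.20 to 13.1), where their contact ends would give 0.622. Other windows had contacts in Lenti-AS and 0 in Lenti-GFP. The window from 90400001 to 90500000 on chromosome 7 had 5 (334 per 1000000 contact ends, against 229 in each of the 2 windows), and the window from 55700001 to 55800000 on chromosome 1 had 8 (122 per 1000000 contact ends).

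Per 1000000 contacts of the library, the 2 windows had 0.0340 (interval 0.0137 to 0.0701) in Lenti-GFP and 0.0413 (0.0152 to 0.0899) in Lenti-AS, from 7 and 6 contacts. The Lenti-GFP value is raised by the choice, so the values are not evidence that the groups were alike there. They made up 0.914% of the 766 chrM contacts of Lenti-GFP and 0.0903% of the 6644 of Lenti-AS. The difference between the groups in these windows was not tested, because the Lenti-GFP counts chose them. Leaving both windows out moved the fold of the whole rate from 12.3 to 12.4. A copy of mitochondrial sequence in these stretches was not looked for, since no sequence of this build was used here.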

How the data were processed

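Hi-C contacts were measured in 2 Lenti-GFP and 2 Lenti-AS libraries of primary rat Schwann cells, read in 150 bp from both ends. The authors deposited 1 matrix of raw contact counts per library at 10 kb, made with HiC-Pro (version not given in the sources used here), with rn6 as the build in the submitters' processing notes. HiC-Pro keeps read pairs by mapping quality, so reads that fit several places can be missing, and the filter that was set is not known here. The authors also deposited balanced signal (iterative correction) of the merged libraries of a group; only the list of its pairs with chrM was used. The deposited bin tables gave the coordinates. The matrices at 100 kb were not used.

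Contacts of chrM with chromosomes 1 to 20 were summed per bin, chromosome and window. Trans contacts of a bin are those between different chromosomes among 1 to 20 and X. Contact ends count the ends in the bin of its cis and trans contacts, without contacts with chrY or chrM. Count tables were fitted with glmQLFTest of edgeR 4.0.16 (R 4.3.3), with group as the only term, a minimum of 10 contacts summed over the libraries and Benjamini-Hochberg adjustment. TMM factors were used for chromosome pairs, and the total of chrM contacts for windows and chromosome shares. SE is the log2 fold change over the root of the F statistic. It can fall below the counting error. DESeq2 1.42.0 was an alternative. Wilson and exact Poisson intervals (95%) and exact two-sided permutation tests over libraries used scipy 1.17.1. The fits were tested on simulated data, with the pairs of chrM left out of the simulated chromosome pairs. The numbers expected from contact ends are sums of Poisson terms, given as a reference and not as a test.

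The members, thresholds and lists were chosen with earlier results of these data known. The bins named are the 10 with the most contacts, ties by position, and the chromosomes named are the 2 highest and 2 lowest against trans contacts and the 5 pairs with the lowest p. Other regions were named after their values had been seen.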

Additional observations from a re-analysis of the deposited data

Results flagged for a closer look

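The merged Lenti-AS matrix listed 7179 pairs of chrM with bins of chromosomes 1 to 20 that had no contact in either Lenti-AS library. It was singled out because the comparisons above rest on the single libraries and leave these pairs out, and because the merged Lenti-GFP matrix listed 438. They made up 52.3% of the 13731 chrM pairs listed for Lenti-AS and 36.8% of the 1190 listed for Lenti-GFP, while 26 and 8 pairs of the single libraries were missing from the merged lists. Bin 1 of chrM took 71.01% of these pairs in Lenti-AS and 69.6% in Lenti-GFP, above its part of the contacts in the single libraries. The pairs lay on 7142 bins in Lenti-AS, of which 114 (1.60%) were members, and on 437 bins in Lenti-GFP, of which 15 (3.43%) were members. Members are 2.77% of all numbered bins and hold 3.40% of the contact ends, but a pair seen in a group's own libraries cannot be among these pairs, so the shares are not comparable in full. These are the authors' merged values, with no replicates, and no test was made.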

How the results depend on the processing

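The direction of the difference in rate, with Lenti-AS above Lenti-GFP, held under the 11 alternatives that were run, with folds from 2.86 (per 1000 contacts within chrM) to 12.5. Leaving out each library in turn gave 12.001 to 12.5. Per contact between bins 1 and 2 of chrM, a divisor outside these 11 alternatives, the fold was 1.48. All 9 alternatives for chromosome pairs called 20 pairs of chrM, and all 11 for windows called 0, with 4 to 16 windows at an unadjusted p below 0.05. In each set, 4 of these leave out a library, so that the lone library of its group is assumed to vary like the other group. With the replicate number as a block, edgeR called 20 chrM pairs and 0 windows, as without it. Other chromosome pairs were not counted under the block. The deviations of libraries with the same number correlated at 0.231 over chromosome pairs and 0.0716 over windows. Over the 231 pairs with 100 or more contacts in each library the value was 0.381. There are only 2 numbers, and the labels do not say whether libraries with the same number share more than it. The count of repeated bins was 1 at 5 or more contacts, 6 at 3 or more and 0 at 10 or more, and with 1 library left out it was 0 to 1. The mean share of a library's chrM contacts in bins chosen on the other 3 libraries was 0.00793% at 5 or more contacts and 0.206% at 3 or more. The first value rests on 1 contact, in Lenti-AS replicate 2. For Lenti-GFP replicate 2 and Lenti-AS replicate 1 no bin was chosen at that threshold, so their shares were fixed in advance. The second value rests mostly on Lenti-GFP replicate 2, with 0.733% (3 contacts) where the bins held 0.0194% of its contact ends, against 0 contacts in Lenti-GFP replicate 1 and 0.0573% and 0.0317% for Lenti-AS replicates 1 and 2, where the bins held 0.0125% and 0.00586% of the contact ends. The second decile of bins over the highest was 2.20 by trans contacts, 1.32 by cis contacts and 1.27 by all contact ends, and 3.76 in Lenti-GFP replicate 2 alone. The reference by contact ends and the windows of 100 kb were added after the data had been seen. The cause of these shifts was not tested. Leaving out bins that align to chrM was not run, for want of a genome of this build. Depth limits the Lenti-GFP values, which rest on 766 contacts in all.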
